A study of Mus musculus with 6 samples.

Results

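The genes of the endothelial glycocalyx were examined in glomerular endothelial cells (GEC) of normal and diabetic mice. The set held 56 genes, chosen by function, that encode proteoglycan core proteins, the enzymes that build, modify and trim their heparan sulfate and chondroitin sulfate chains, and the genes of hyaluronan. Each gene was read by the probeset that carried its symbol alone, and it was tested when that probeset reached a signal of 100 on the linear scale (6.64 on the log2 scale) in 3 or more arrays. Of the 56 genes 54 had such a probeset, 1 each, and 38 of these reached the level, among 12763 genes and 20661 probesets that did so in the whole table. A further 16 lay below it, and Ndst1 and Hyal1 were not analyzed here.

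GEC were sorted by FACS from the sieved glomeruli of mice of 7 months, and each of 6 biological samples was read on 1 Affymetrix Mouse Gene 1.0 ST array. The 3 normal samples had the genotype Tie2-GFP with +/+, and the 3 diabetic samples Tie2-GFP with DB/DB, a loss of leptin receptor function that makes mice obese and diabetic (db/db mice). All 6 samples carried the Tie2-GFP transgene, in which the promoter of an endothelial receptor kinase drives green fluorescent protein. That promoter can also be active in some blood cells. Values are log2 probeset signals, with SD over 3 arrays, and changes are db/db minus normal with the moderated SE of limma. The probeset of Lepr, the mutated gene, lay below the level in all 6 arrays (4.77 to 5.12) and so gave no check of the labels. All 10 pan-endothelial markers reached the level, and their summed signal ran from 55809 to 57307 in normal and from 56914 to 59039 in db/db arrays. Among them Tek, the gene of Tie2, was lower in each db/db array (log2 change -0.33 ± 0.12, adjusted p = 0.754 with limma). Cdh5, the adhesion protein VE-cadherin, was higher in each (0.21 ± 0.08, adjusted p = 0.754 with limma). Pecam1, Kdr, Eng and Egfl7 were also higher in each db/db array and Flt1 lower in each, while Tie1, Emcn and Robo4 overlapped between groups. Of all tested probesets 7.01% lay wholly higher in db/db and 5.31% wholly lower. Array medians lay between 7.00 and 7.04, and pairwise correlations across probesets between 0.954 and 0.971. The precision is that of 3 arrays a group, labelled as biological replicates, and the number of animals behind each is not given in the sources used here. Because the cells were measured in bulk, fewer cells of a type and less RNA per cell cannot be told apart.

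The glycocalyx is a layer of sugar-rich protein on the luminal face of endothelium, where it takes part in the charge and size barrier of the glomerular filter. A proteoglycan is a core protein whose serines carry long sulfated chains, each started on a short linker of xylose, galactose and glucuronic acid. Heparan sulfate chains are then extended by exostosins, partly N-sulfated, epimerized and O-sulfated, and the sulfation pattern sets which growth factors, chemokines and coagulation proteins they bind. Hyaluronan, by contrast, is made at the plasma membrane without a core protein or sulfate.

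The level filter did not by itself mean expression by the endothelial cells. Of 8 tubule markers 5 also reached it in these sorted cells, with signals from 6.24 to 7.97. Of the 38 tested members 23 were at 200 or more (7.64 on the log2 scale) in every array. Signals of different probesets depend on their probes, so levels were compared between arrays and not between genes.

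No member passed limma's test after Benjamini-Hochberg adjustment over all 20661 probesets, of which 0% passed (0 probesets, smallest adjusted p = 0.203, with 1320 at an unadjusted p under 0.05, and 0 by the methods' t-test as well). The smallest adjusted p among the members was 0.328, for Bgn. At an unadjusted p under 0.05, 5 of the 38 members were higher in db/db (13.2%) and 1 was lower (2.63%). Of all tested probesets 3.48% were higher and 2.91% lower by this rule, and with 1 probeset per gene 3.49% and 3.07%. In 7 members (18.4%) each db/db array lay above every normal array, and in 1 (2.63%) each lay below. Over all tested probesets these shares were 7.01% and 5.31%, and over 1 probeset per gene 7.39% and 5.92%. The median log2 change of the members was 0.096, against 0.014 over all tested probesets, and 26 of 38 (68.4%) had the higher mean in db/db, against 53.7% of genes. By the methods' unpaired t-test at a p under 0.05 with a change over 1.5-fold, 1 member (Bgn) was higher and 0 were lower, against 0.871% and 0.644% of all tested probesets. For 16 members the 95% interval of the change lay within 0.5 on either side of 0, and for 34 within 1.

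**Figure D1:**
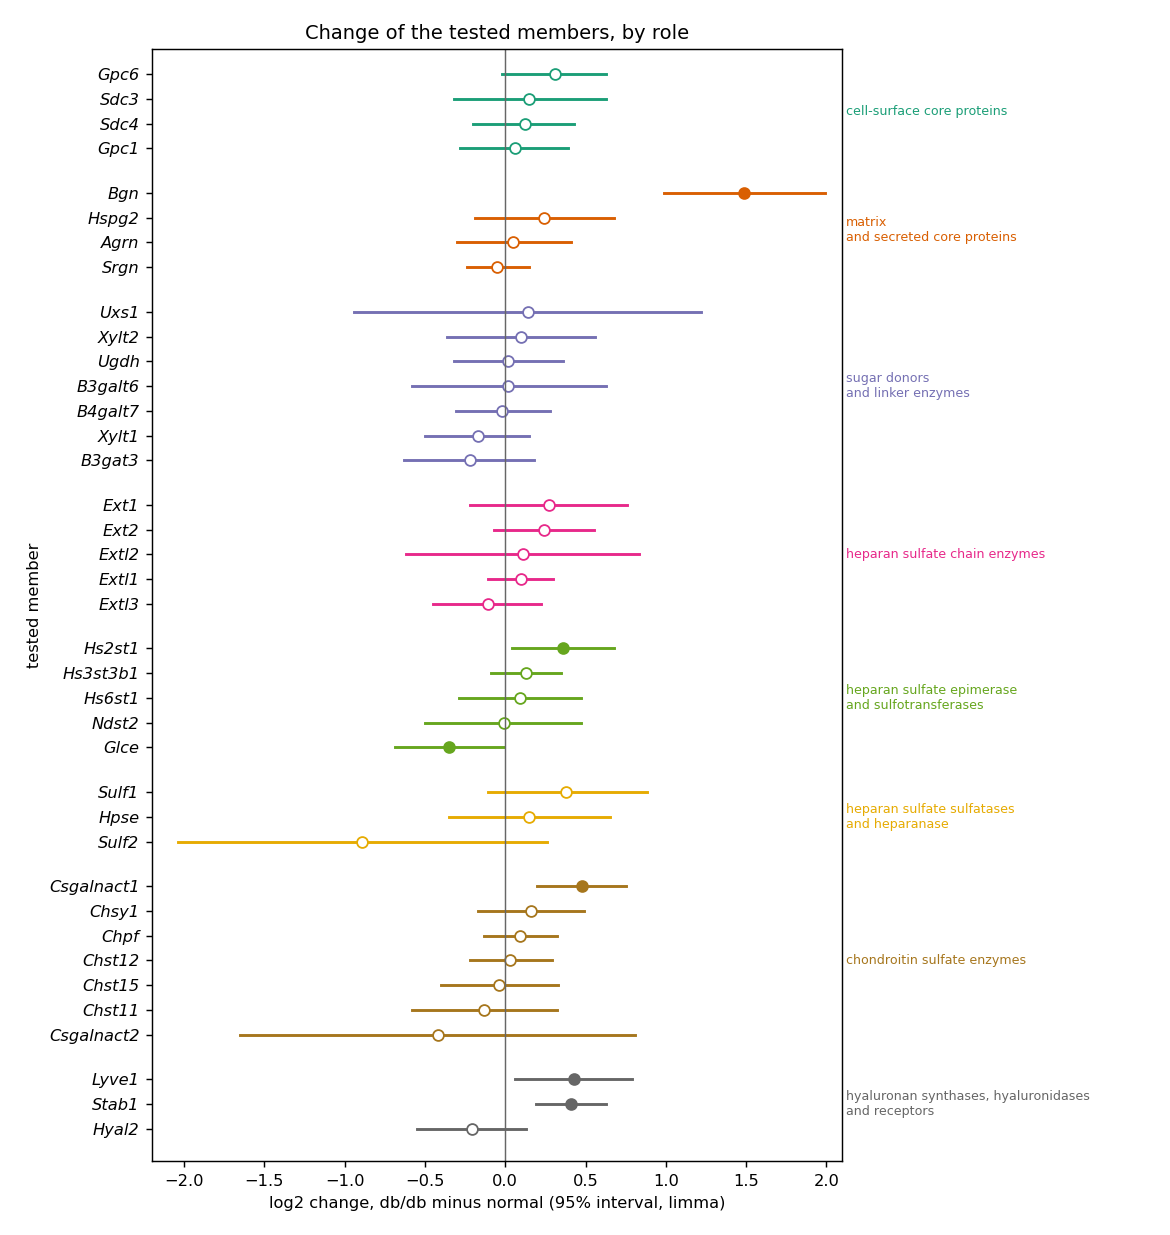
Log2 change of the 38 tested members, db/db minus normal, grouped by role, with the 95% interval from limma (lines). Filled points mark the 6 members at an unadjusted p under 0.05. Bgn, at 1.49, had an interval from 0.99 to 1.99, while most other intervals crossed 0.

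RefSeq promoter windows were given for 43 of the 56 members. Those of Bgn, Stab1, Hs2st1 and Glce, 4 of the 6 members at an unadjusted p under 0.05, are shown here. None is shown for Csgalnact1 and Lyve1. Each run is the 250 bases before the annotated start, 5′ to 3′ in the direction of the gene, on GRCm38.p6. Capitals mark GGGCGG, the GC box bound by SP1-type factors, and CAGGAA, a core bound by ETS factors, on either strand, with overlapping copies counted.
Bgn (chrX:73483351-73483600, plus strand): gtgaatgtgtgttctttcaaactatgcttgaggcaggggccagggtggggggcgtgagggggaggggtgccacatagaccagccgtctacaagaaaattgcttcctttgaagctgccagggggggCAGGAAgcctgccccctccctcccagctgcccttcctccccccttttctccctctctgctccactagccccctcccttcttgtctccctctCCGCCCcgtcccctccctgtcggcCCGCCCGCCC
Stab1 (chr14:31168642-31168891, minus strand): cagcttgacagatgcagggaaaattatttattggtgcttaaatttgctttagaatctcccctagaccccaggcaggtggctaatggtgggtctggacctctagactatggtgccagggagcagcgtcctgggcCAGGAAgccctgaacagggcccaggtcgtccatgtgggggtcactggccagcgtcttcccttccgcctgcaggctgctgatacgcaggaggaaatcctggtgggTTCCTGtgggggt
Hs2st1 (chr3:144570217-144570466, minus strand): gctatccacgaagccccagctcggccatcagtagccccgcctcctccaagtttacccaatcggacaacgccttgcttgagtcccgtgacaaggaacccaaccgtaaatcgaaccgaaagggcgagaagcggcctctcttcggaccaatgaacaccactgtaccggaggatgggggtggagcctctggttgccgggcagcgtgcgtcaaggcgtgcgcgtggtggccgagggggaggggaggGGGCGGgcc
Glce (chr9:62122610-62122859, minus strand): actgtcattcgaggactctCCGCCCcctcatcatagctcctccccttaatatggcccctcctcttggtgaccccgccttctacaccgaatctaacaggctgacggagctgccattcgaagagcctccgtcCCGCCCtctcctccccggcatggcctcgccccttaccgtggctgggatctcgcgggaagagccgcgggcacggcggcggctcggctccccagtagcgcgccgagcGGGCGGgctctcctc
The GC box occurred 3 times for Bgn, 3 for Glce, 1 for Hs2st1 and 0 for Stab1, and some copy was present in 32.7% of all 32851 windows of this length. CAGGAA occurred 1 time for Bgn, 2 for Stab1 and 0 for Hs2st1 and Glce, and was present in 25.7% of all windows. These are matches of letters, and no binding was measured.

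Among core proteins of the cell surface, the syndecans span the membrane and the glypicans are held by a lipid anchor. Of the 8 listed, 4 were tested, 0 were at an unadjusted p under 0.05 and all 4 had the higher mean in db/db (median log2 change 0.14). For this and each role group below, the shares over all tested probesets at that p are 3.48% higher and 2.91% lower. Gpc6, a glypican, gave log2 signals of 7.17, 6.81 and 6.74 in the normal arrays and 7.23, 7.21 and 7.20 in the db/db arrays. Its groups did not overlap, although normal replicate 1 came within 0.04 of the lowest db/db array, and its log2 change was 0.31 ± 0.13 (adjusted p = 0.784 with limma). Sdc3, a syndecan, gave 8.64, 8.74 and 8.40 in normal and 9.11, 8.65 and 8.49 in db/db. Its groups overlapped, with db/db replicate 1 the highest array (log2 change 0.15 ± 0.19, 95% interval -0.32 to 0.63). Sdc4, the syndecan of focal adhesions, had a log2 change of 0.12 ± 0.13 and Gpc1 of 0.06 ± 0.14, both with overlapping groups. Sdc1, which epithelial cells shed, Sdc2, Gpc3 and Gpc4 lay below the level in all 6 arrays, between 4.98 and 6.49.

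Among core proteins of matrix and granules, of which 4 of 6 were tested, 1 was higher and 0 lower at an unadjusted p under 0.05. Bgn, or biglycan, a small leucine-rich proteoglycan that carries chondroitin or dermatan sulfate, showed the largest change of the tested members. Its log2 signals were 7.04, 6.98 and 6.80 in normal and 8.55, 8.73 and 8.01 in db/db. Every db/db array lay above every normal array, by at least 0.97, and the change of 1.49 ± 0.20 (2.81-fold, 95% interval 0.99 to 1.99) ranked 25th by p among the 20661 probesets (adjusted p = 0.328 with limma). Leaving out each array in turn gave log2 changes from 1.34 to 1.70. The normal arrays of Bgn lay little above the level of 6.64, and the part of background in them was not tested. Dcn, or decorin, the closest relative of biglycan in this set, lay below the level in all 6 arrays (5.89 to 6.23), as did Vcan, the large chondroitin sulfate proteoglycan versican (5.54 to 6.07).

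The heparan sulfate proteoglycans of basement membrane were Hspg2 (perlecan) and Agrn (agrin). Hspg2 gave 9.59, 9.72 and 9.16 in normal and 9.92, 9.62 and 9.66 in db/db, with overlapping groups. Its log2 change of 0.24 ± 0.18 became 0.079 without normal replicate 3, 0.15 without db/db replicate 1 and 0.36 without normal replicate 2. Agrn had a log2 change of 0.05 ± 0.14 (95% interval -0.30 to 0.41). Srgn, or serglycin, the proteoglycan of secretory granules, gave 13.01, 13.11 and 12.99 in normal and 12.97, 13.04 and 12.96 in db/db. Its arrays lay within 0.15 of each other, and the interval of its change, -0.24 to 0.15, was the narrowest of the 4 tested core proteins of this group.

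**Figure D2:**
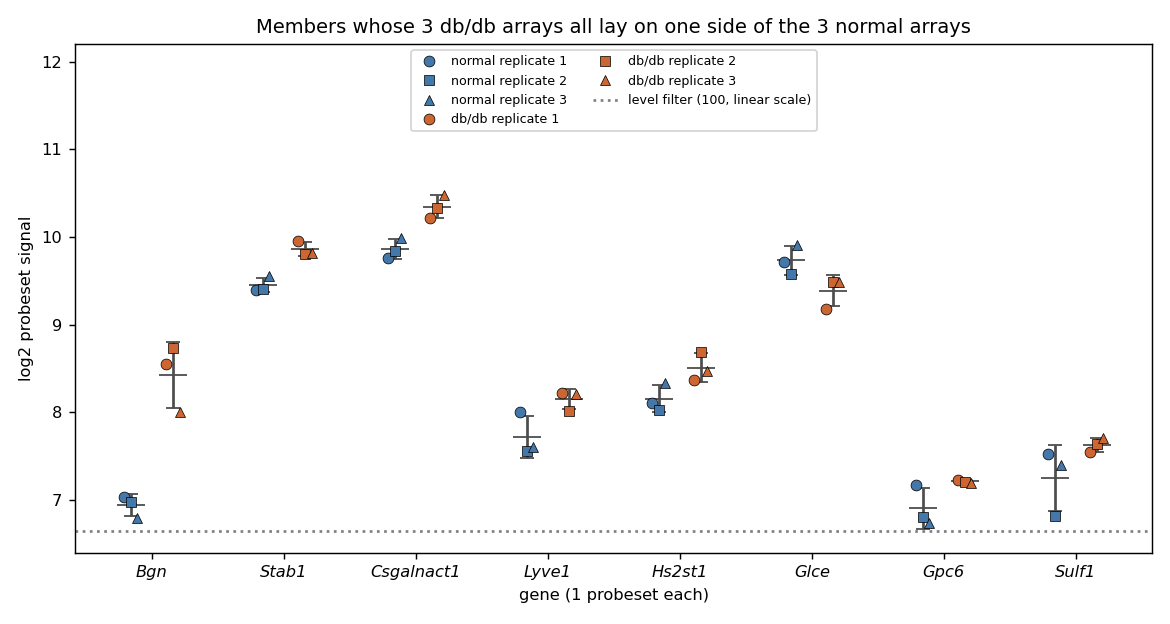
Log2 probeset signal in each array (points, shaped by replicate number) of the 8 members whose groups did not overlap, in order of p, where bars give each group's mean and its SD over 3 arrays. Bgn had the widest gap, with normal arrays up to 7.04 and db/db arrays from 8.01, and Glce alone was lower in db/db.

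Sugar donors and linker enzymes came next. Ugdh makes UDP-glucuronic acid and Uxs1 converts it to UDP-xylose, while Xylt1 and Xylt2, B4galt7, B3galt6 and B3gat3 add the linker sugars in turn. All 7 were tested and 0 were at an unadjusted p under 0.05. Their log2 changes ran from -0.22 (B3gat3) to 0.14 (Uxs1), with a median of 0.02. Ugdh gave 9.27, 8.90 and 8.95 in normal and 8.94, 9.04 and 9.21 in db/db, so that its groups overlapped throughout (95% interval of the change -0.32 to 0.36). For B4galt7 the interval was -0.31 to 0.28. Uxs1 was the least certain, at 9.07, 7.90 and 9.35 in normal and 9.43, 8.59 and 8.71 in db/db. Normal replicate 2 was its lowest array, and the interval of its change ran from -0.94 to 1.22.

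Heparan sulfate chains are then polymerized. Ext1 and Ext2 form the polymerase that alternates glucuronic acid and N-acetylglucosamine, and the Extl proteins take part in starting or ending the chain. All 5 were tested, 0 were at an unadjusted p under 0.05, and 4 had the higher mean in db/db (median log2 change 0.11). Ext2 gave 10.11, 9.92 and 9.93 in normal and 10.35, 10.32 and 10.02 in db/db. Its db/db replicates 1 and 2 were the highest arrays, replicate 3 lay among the normal ones, and its log2 change was 0.24 ± 0.12. Ext1, its partner, had a log2 change of 0.27 ± 0.20. Extl1, Extl2 and Extl3 had log2 changes of 0.10 ± 0.08, 0.11 ± 0.29 and -0.11 ± 0.13.

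Of 10 listed genes of the heparan sulfate epimerase and sulfotransferases 5 were tested, and 1 was higher and 1 lower in db/db at an unadjusted p under 0.05. Both act on the same sugar of the chain. Glce, the epimerase that turns glucuronic into iduronic acid, gave 9.72, 9.58 and 9.91 in normal and 9.18, 9.49 and 9.49 in db/db. Every db/db array was below every normal array, with a log2 change of -0.35 ± 0.14 (adjusted p = 0.772 with limma). Hs2st1, which then adds sulfate to the iduronic acid, gave 8.11, 8.03 and 8.33 in normal and 8.37, 8.69 and 8.47 in db/db. Every db/db array was above every normal array, with a log2 change of 0.36 ± 0.13 (adjusted p = 0.754). Without each array in turn the log2 change kept its direction, from -0.43 to -0.25 for Glce and from 0.27 to 0.44 for Hs2st1. Their p depended on the arrays kept. Glce stayed at an unadjusted p under 0.05 in 1 of 6 fits that left out an array, that without normal replicate 2, and Hs2st1 in 2, those without normal replicate 3 or db/db replicate 1. With the replicate number as a block or with the methods' t-test neither was under 0.05, and with an intensity trend or quantile normalization Glce was not.

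The remaining sulfotransferases with signal were closer to 0. Ndst2, which removes acetyl groups and N-sulfates the chain, had a log2 change of -0.01 ± 0.20, Hs6st1, a 6-O-sulfotransferase, of 0.09 ± 0.16, and Hs3st3b1, a 3-O-sulfotransferase, of 0.13 ± 0.09 (95% interval -0.09 to 0.35). Hs3st1, the enzyme best known for making the antithrombin-binding site, lay below the level in all 6 arrays (5.54 to 5.99), as did Ndst3 and Hs6st2. Hs3st3a1 reached it in 1 array alone, db/db replicate 2, at 7.91 against 5.57 to 6.61 in the other 5.

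Finished chains are trimmed in the matrix. Sulf1 and Sulf2 remove 6-O-sulfates outside the cell and Hpse cuts the chain. All 3 were tested and 0 were at an unadjusted p under 0.05. Sulf2 gave 7.95, 9.78 and 8.91 in normal and 7.70, 8.10 and 8.16 in db/db. The normal arrays spread over 1.84, with replicate 1 inside the db/db range and replicate 2 the highest of all. Its log2 change of -0.89 ± 0.46 (95% interval -2.04 to 0.26) became -1.36 without normal replicate 1 and -0.44 without normal replicate 2. Sulf1 gave 7.53, 6.82 and 7.40 in normal and 7.55, 7.64 and 7.71 in db/db. Its groups did not overlap but were 0.02 apart at normal replicate 1, with a log2 change of 0.38 ± 0.20 that became 0.17 without normal replicate 2. Hpse gave 6.58, 6.76 and 6.49 in normal and 6.35, 6.91 and 7.03 in db/db, reaching the level in 1 normal and 2 db/db arrays, and its interval ran from -0.35 to 0.65.

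Of 9 genes of chondroitin sulfate synthesis 7 were tested, with 1 higher at an unadjusted p under 0.05 and 0 lower. Csgalnact1 adds the first N-acetylgalactosamine to the linker, the step that commits a chain to chondroitin instead of heparan sulfate. It gave 9.76, 9.84 and 9.99 in normal and 10.22, 10.33 and 10.48 in db/db. Every db/db array was above every normal array, and the log2 change of 0.48 ± 0.11 (1.39-fold, adjusted p = 0.558 with limma) stayed at an unadjusted p under 0.05 without each array in turn, between 0.41 and 0.54. Its paralog Csgalnact2 varied widely within groups, at 9.45, 8.68 and 8.06 in normal and 7.50, 8.96 and 8.49 in db/db. Its log2 change of -0.42 ± 0.50 became -0.009 without db/db replicate 1, -0.058 without normal replicate 1, -0.75 without normal replicate 3 and -0.74 without db/db replicate 2. The polymerizing enzymes Chsy1 and Chpf had log2 changes of 0.16 ± 0.13 and 0.09 ± 0.09. The sulfotransferases Chst11 and Chst12, which act on carbon 4, and Chst15, which adds a further sulfate, had log2 changes of -0.13 ± 0.18, 0.03 ± 0.10 and -0.04 ± 0.15. Chst3 reached the level in normal replicate 2 alone (7.01), and Ust in 0 arrays.

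Of the 8 hyaluronan genes, the synthases Has1, Has2 and Has3 all lay below the level in each array, between 6.13 and 6.56, as did the receptor Cd44, between 6.04 and 6.25. Of the 3 tested genes 2, Stab1 and Lyve1, were higher at an unadjusted p under 0.05, against 3.48% of all tested probesets. This is not read as a trait of hyaluronan receptors, since Layn, a receptor outside the set, was lower in each db/db array (-0.38 ± 0.18). Stab1, or stabilin-1, an endocytic receptor of sinusoidal endothelium and macrophages, gave 9.40, 9.41 and 9.55 in normal and 9.95, 9.81 and 9.82 in db/db. The groups were 0.26 apart, and the log2 change of 0.41 ± 0.09 (1.33-fold, adjusted p = 0.544 with limma) stayed at an unadjusted p under 0.05 without each array in turn, between 0.36 and 0.45. Lyve1, a hyaluronan receptor best known from lymphatic endothelium, gave 8.00, 7.56 and 7.61 in normal and 8.22, 8.02 and 8.21 in db/db. Its groups were 0.02 apart at normal replicate 1, and its log2 change of 0.43 ± 0.15 (adjusted p = 0.746) stayed under 0.05 in 2 of the 6 fits, those without normal replicate 1 or db/db replicate 2. Hyal2, a hyaluronidase anchored to the cell surface, gave 9.83, 10.15 and 9.68 in normal and 9.64, 9.66 and 9.73 in db/db, with overlapping groups and a log2 change of -0.21 ± 0.14.

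**Figure D3:**
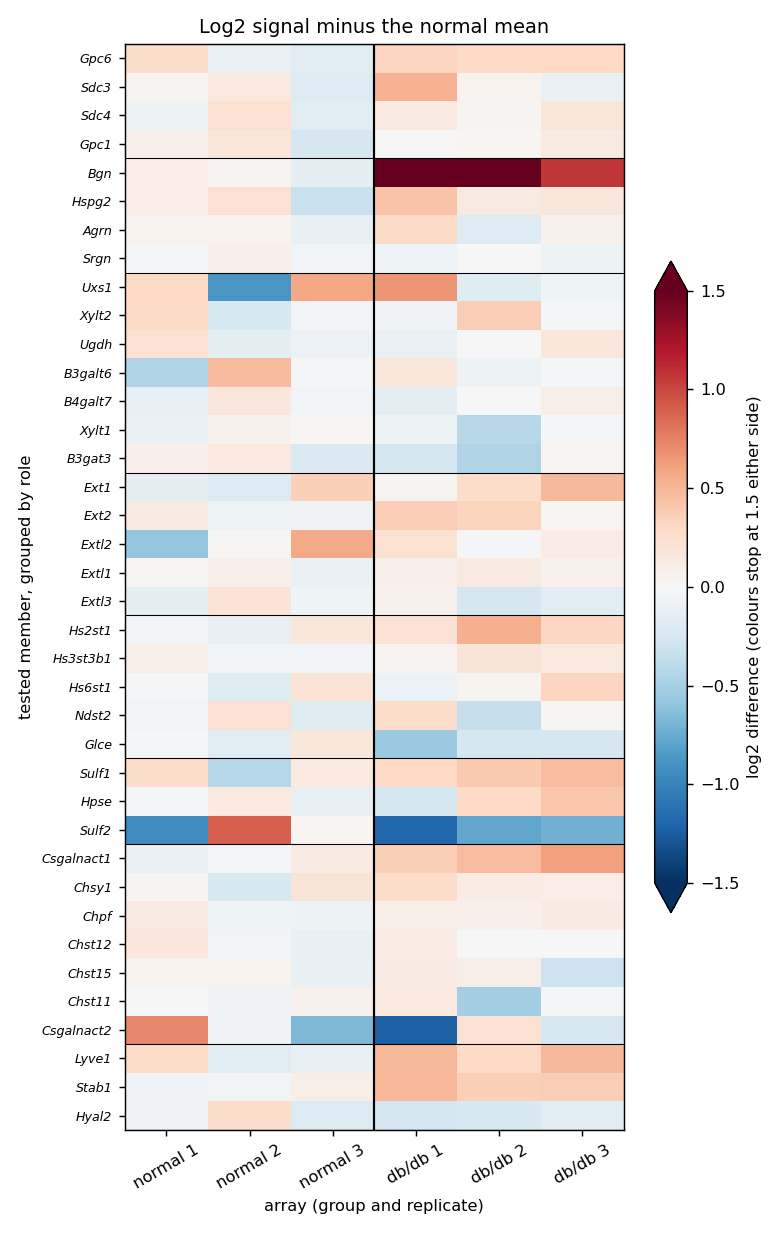
Log2 signal of the 38 tested members in each array, minus the mean of the 3 normal arrays, with lines between role groups. Colors stop at 1.5 on either side, which db/db replicates 1 and 2 exceeded for Bgn. Sulf2, Uxs1 and Csgalnact2 varied among arrays of the same group, by up to 1.84 among the normal arrays of Sulf2.

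Signals of other cell types were set beside Bgn, Lyve1 and Stab1, which mesangial cells, fibroblasts, lymphatic endothelium or macrophages can also express. Of 9 mesangial and smooth muscle markers with a probeset 3 reached the level. Pdgfrb, Itga8, Des and Gata3 did not, and the summed signal of the list ran from 793 to 962 in normal and from 825 to 1060 in db/db. Of 8 fibroblast markers 4 reached the level, and Pdgfra, Lum, Dpt and Mfap5 did not. Sums ran from 3240 to 3644 in normal and from 3258 to 3349 in db/db, most of it from Pi16 (11.27 to 11.54). The sum thus follows Pi16 and is not read as a level of fibroblasts. Col1a1, Col1a2 and Col3a1, also at the level, had overlapping groups, with log2 changes of 0.02 ± 0.12, 0.10 ± 0.11 and 0.10 ± 0.10. Of 12 leukocyte markers 3 reached the level in 3 or more arrays, and Ptprc, Csf1r, Adgre1, Cd52, Cd79a and Itgam lay below it in every array. Lyz2 was above it in db/db replicates 1 and 2 (7.41 and 6.82) but not in db/db replicate 3 (6.61) or the normal arrays (6.19 to 6.63). Fcer1g and Laptm5 were above it in db/db replicate 1 alone (7.12 and 6.71). Leukocyte sums ran from 1288 to 1333 in normal and were 2228, 1073 and 1355 in db/db replicates 1 to 3. The macrophage marker Cd68 was higher in each db/db array (6.91 to 7.95) than in the normal ones (6.63 to 6.81). The other leukocyte markers at the level, Tyrobp and Cd3e, had overlapping groups. Tyrobp gave 9.03, 8.68 and 8.79 in normal and 10.04, 7.45 and 8.83 in db/db, and Cd3e had a log2 change of -0.11 ± 0.16. Of 4 lymphatic markers with a probeset 2 reached the level, Pdpn and Flt4, both with overlapping groups. Lymphatic sums ran from 621 to 835 in normal and from 779 to 875 in db/db. With Prox1 and Reln below the level in every array, this sum is not read as a level of lymphatic endothelium. The summed tubule list was higher in each db/db array (1003 to 1031) than in the normal ones (856 to 990). Umod gave 6.24 to 6.63 in normal and 6.68 to 6.87 in db/db, and reached the level only through its db/db arrays. The groups of the other tubule markers at the level, Slc34a1, Slc5a2, Slc12a3 and Aqp2, overlapped. The erythrocyte list held 6 probesets, 4 of them globin probesets that list several globin genes, and its sum ran from 17088 to 25531 in normal and from 4710 to 7426 in db/db. The lower sum came from globin, since Alas2 and Slc4a1 overlapped between groups, with log2 changes of -0.10 ± 0.12 and 0.01 ± 0.11. Platelet sums ran from 808 to 1168 in normal and from 563 to 919 in db/db. Within that list Itga2b was higher in each db/db array (log2 change 0.26 ± 0.12), while Pf4, Ppbp and Gp9 overlapped. Podocyte sums ran from 1140 to 1303 in normal and from 1102 to 1170 in db/db. Cdkn1c was lower in each db/db array (log2 change -0.40 ± 0.12) and Wt1 higher in each (0.08 ± 0.07), while Nphs1, Synpo and Clic3 overlapped. The part of these cells in the members' values was not tested.

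**Figure D4:**
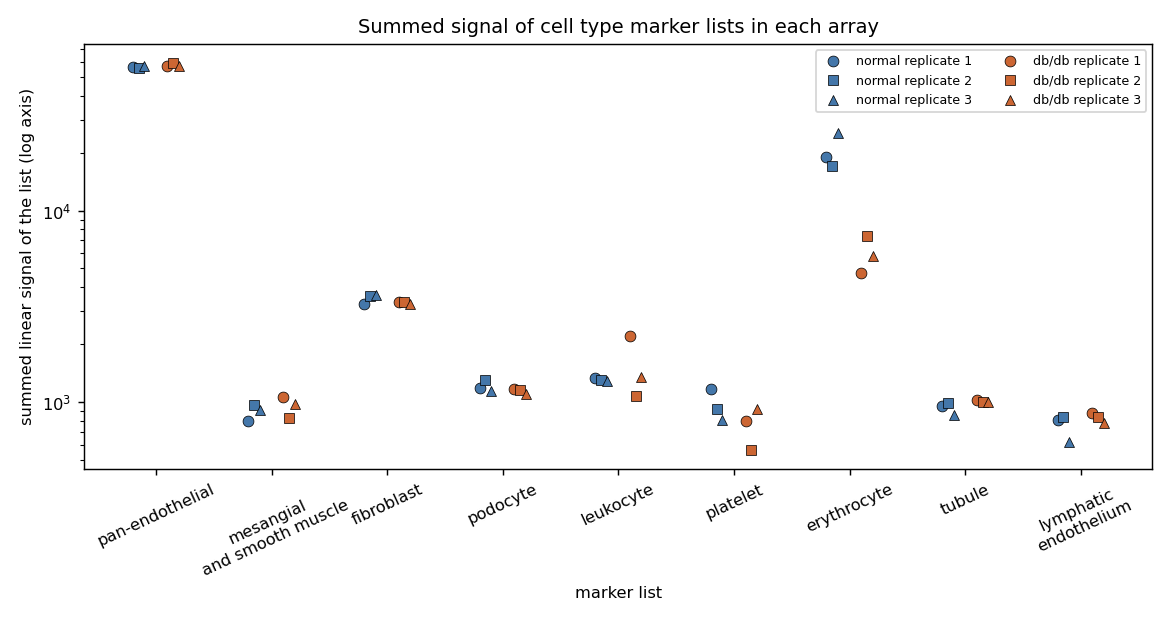
Summed linear signal of each marker list in each array (points, shaped by replicate number, log axis) of normal and db/db GEC. Pan-endothelial sums lay between 55809 and 59039 in all 6 arrays. Erythrocyte sums were lower in every db/db array, through the globin probesets of that list. The highest leukocyte sum was that of db/db replicate 1, 2228.

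Other genes of the same pathways were then counted. Of all tested probesets 3.48% were higher and 2.91% lower at an unadjusted p under 0.05, the shares to set beside each count below. Of 14 tested further core proteins 1 was higher and 0 lower at an unadjusted p under 0.05, and 0 passed after adjustment. This was Esm1, or endocan, a dermatan sulfate proteoglycan secreted by endothelium, at 7.17, 7.65 and 9.04 in normal and 10.13, 10.11 and 10.19 in db/db (log2 change 2.19 ± 0.48, adjusted p = 0.534). The gene with the next smallest p was Col15a1, a basement membrane collagen that carries chains, at -0.43 ± 0.22. Of 19 further genes of chain synthesis 0 were higher and 0 lower at an unadjusted p under 0.05, with Chst14, which sulfates dermatan, at 0.25 ± 0.15.

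Of 10 lysosomal enzymes of chain breakdown 1 was higher and 0 lower at an unadjusted p under 0.05. Naglu, which removes N-acetylglucosamine from heparan sulfate, gave 6.48, 6.44 and 6.37 in normal and 6.70, 6.88 and 6.83 in db/db (log2 change 0.38 ± 0.09). It reached the level only through its db/db arrays, so its place in this count is not read as support for a change. Arsb, a sulfatase of dermatan sulfate, had a log2 change of -0.41 ± 0.24. Of 3 tested further hyaluronan genes 1 was higher and 0 lower. Cemip2, a cell-surface protein that takes part in the breakdown of hyaluronan, gave 10.66, 10.71 and 10.76 in normal and 11.11, 11.12 and 11.10 in db/db. Its groups were 0.34 apart with little spread, and the log2 change was 0.40 ± 0.07 (1.32-fold, adjusted p = 0.421 with limma). Layn, a hyaluronan receptor, had a log2 change of -0.38 ± 0.18. Each of its db/db arrays lay below every normal array, although the gap between the groups was 0.00 after rounding.

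Of 9 tested proteases that shed core proteins and their inhibitors 0 were at an unadjusted p under 0.05. Adam17, a sheddase of syndecans, had a log2 change of 0.26 ± 0.14, and Mmp9 of 0.15 ± 0.08, the latter reaching the level only through its db/db arrays.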

How the data were processed

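Glomerular endothelial cells of 3 normal and 3 db/db samples were measured on 6 Affymetrix Mouse Gene 1.0 ST arrays. The deposited values are log2 probeset signals, 1 column per array. The study states that the authors used RMA in GeneSpring, while the submitters' processing notes name MAS5 alone. No further normalization was applied. Such a normalization sets each change relative to the other probesets of an array.

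Of 35557 probesets the annotation gave 21789 a single symbol, 1621 several and 12147 none. Testing was limited to probesets whose linear signal was at least 100 in at least 3 arrays (20661, of which 5764 had no gene listed). A gene was given by its highest-mean single-symbol probeset, and each member with one had 1. Only globin was read otherwise, by the 4 probesets that list several globin genes. Groups came from the labels. They were compared with limma 3.58.1 in R 4.3.3 (lmFit, eBayes, two-sided, Benjamini-Hochberg over all tested probesets, threshold 0.05). An exact permutation of 3 against 3 arrays cannot go below p = 0.1, so none was used. The members, lists and rules were chosen with earlier results of these data known. Values in every array are given for members at an unadjusted p under 0.05, with groups that do not overlap, or with the highest signal of their role group, and for others where a value needed it. Replicate numbers are not stated to pair arrays, so a block was fitted only as an alternative. Alternatives were quantile normalization, median centering, a level of 200 or 0, the methods' t-test, each array left out, blocking on replicate number, a variance trend on intensity, alone or with robust shrinkage, probesets with a gene listed, 1 probeset per gene and the mean of a gene's probesets. The fit was tested, for the sign and size of changes alone, on simulated data in which 200 probesets had known changes. Those changes were larger than the changes of most members, so the power to find changes as small as theirs was not tested. Plots were made in matplotlib 3.10.9. Protein sequences were not used here, so the planned protein features were not computed.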

Additional observations from a re-analysis of the deposited data

How the results depend on the processing

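The 38 members kept 0 calls after adjustment under every alternative, with a lowest adjusted p of 0.153 (Bgn). Over all genes 1 passed with 1 probeset per gene (Scn7a, log2 change -2.65, adjusted p = 0.0336 with limma) and 2 with the mean of a gene's probesets (Scn7a and Adamts9), named after their values were seen, and 0 probesets passed otherwise. Bgn, Stab1 and Csgalnact1 stayed at an unadjusted p under 0.05 in all 6 fits that left out an array. The count of lower members at that p, 1 (Glce), became 0 with quantile normalization, with an intensity trend, with an intensity trend and a robust prior, and with the methods' t-test, which lost Hs2st1 as well. The replicate block, fitted although nothing states that the numbers pair arrays, gave 4 higher and 0 lower members, without Hs2st1 and Glce. With no level filter 10 of 54 members lay wholly higher and 2 wholly lower in db/db, and 6 were higher and 1 lower at an unadjusted p under 0.05. Leaving out each array gave 3 to 6 higher and 0 to 1 lower members at an unadjusted p under 0.05, and a median log2 change of 0.052 to 0.111. In these fits 8 to 11 members lay wholly higher and 1 to 3 wholly lower. Groups of fewer arrays lie apart more easily, so these counts cannot be set beside those of all 6 arrays. Shares over all probesets were not counted for these fits or without the level filter. The count fell to 3 higher without normal replicate 2. Members that came under this p were Gpc6 and Sulf1 (higher) and Sulf2 (lower) without normal replicate 1, Ext1 without normal replicate 3, Hpse without db/db replicate 1 and Ext2 without db/db replicate 3. Of 633 member values under alternatives 610 kept their direction and 23 reversed, all without 1 array and in 14 members whose change was at most 0.15 in size. Their log2 changes without each array ran for Agrn from -0.066 to 0.18, B3galt6 -0.20 to 0.26, B4galt7 -0.080 to 0.072, Chst11 -0.27 to 0.062, Chst12 -0.024 to 0.12, Chst15 -0.12 to 0.11, Extl2 -0.18 to 0.39, Gpc1 -0.074 to 0.15, Hs6st1 -0.026 to 0.19, Ndst2 -0.16 to 0.15, Sdc3 -0.027 to 0.28, Ugdh -0.051 to 0.14, Uxs1 -0.30 to 0.43 and Xylt2 -0.038 to 0.24. In 29 of the 38 members leaving out 1 array moved the change by over 1.5 times or reversed it. The cause was not tested. Members near the level of 100 may hold mostly background, which limits their folds.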
